A study of Rattus norvegicus with 24 samples.

Results

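Gad1, Gad2, Slc32a1, Slc17a6 and Slc17a7 are the genes by which neurons that release GABA and neurons that release glutamate are usually recognised. They were selected by Ensembl gene identifier together with the expected chromosome, and 5 of 5 were found among the 32552 genes in each of the 24 deposited count tables. The rule reads identifiers and chromosomes and no measured value, but the genes were proposed with earlier results of these data in view. In the nucleus accumbens (NAc), Gad2 RNA was higher and Slc17a7 RNA was lower after fentanyl than after saline when both sexes were averaged, and each call was lost when certain single libraries were left out. Slc17a7 held only 1 to 45 counts in the NAc libraries. Between the 2 brain regions the GABA genes were on average lower, and Slc17a6 far higher, in the ventral tegmental area (VTA) than in the NAc of the same 10 rats. In 1 of these, female fentanyl rat 2, Slc32a1 and Slc17a6 went the other way. Of all genes tested, 62.3% were called between the regions.

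GABA, the main inhibitory transmitter of the forebrain, is made from glutamate by the enzymes GAD67 and GAD65, which Gad1 and Gad2 encode, and is loaded into synaptic vesicles by the transporter VGAT, encoded by Slc32a1. Glutamate is loaded into vesicles by VGLUT2, encoded by Slc17a6 and typical of subcortical neurons, or by VGLUT1, encoded by Slc17a7 and typical of cortical and hippocampal projection neurons. The principal neurons of the NAc are GABA neurons, and the excitatory endings there belong largely to neurons whose cell bodies lie elsewhere; the VTA mixes dopamine, GABA and glutamate neurons.

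The 14 Sprague Dawley rats of both sexes belonged to a study of opioid withdrawal and of choice between fentanyl and food, and had received either fentanyl or saline; the sources used here give no dose, duration or age. Tissue was punched from brain slices on both sides, with a narrower punch for the VTA, in place of the last choice session. The NAc gave 4 fentanyl and 3 saline libraries from females and as many from males, and the VTA gave 3 fentanyl and 2 saline libraries from each sex. For 10 rats there was a library from each region, so the region is compared within rats. Rats are named here by sex, treatment and the number in their label, and a number shared by rats of different groups does not mark the same animal. A punch holds many cell types, and fewer cells of a type cannot be told apart from less RNA per cell.

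Total RNA was depleted of ribosomal RNA and read as paired ends. Gene counts summed to between 3460190 and 5011808 in the NAc libraries and between 4493742 and 6300965 in the VTA libraries. Mitochondrial genes took 22.1% to 36.7% of the NAc counts and 17.6% to 26.9% of the VTA counts. In the NAc of females that share was 31.6% ± 3.54 (SD, n = 4) after fentanyl and 24.4% ± 2.12 (SD, n = 3) after saline. In males it was 27.8% ± 0.661 (SD, n = 4) and 28.4% ± 3.23 (SD, n = 3).

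The punches of female fentanyl rat 2 stood apart. Each library was placed on a scale from 0, the average NAc, to 1, the average VTA, by genes at least 4-fold apart between the regions in the other rats. The NAc library of this rat lay at 0.303 on the 355 genes higher in the VTA and at 0.176 on the 460 genes higher in the NAc. The other NAc libraries lay between -0.065 and 0.048. Its VTA library lay at 0.864 and 1.04 on the same scales. The VTA library of female saline rat 2 also stood apart, at 0.902 and 0.858, and the other 8 VTA libraries lay between 0.938 and 1.06. Where leaving out female fentanyl rat 2 changed a call, a direction or a value by a wide margin, the value without it is given beside the result.

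All 5 genes lie on the plus strand. Coordinates are those of the deposited tables, for which the sources used here name no genome build. Gad1 (ENSRNOG00000000007) spans chr3:56861396-56902157 with 3866 bases in 19 merged exons. Gad2 (ENSRNOG00000018200) spans chr17:89171250-89238040 with 5561 bases in 16 merged exons. Slc32a1 (ENSRNOG00000015393) spans chr3:155103150-155107817 with 2385 bases in 3 merged exons. Slc17a6 (ENSRNOG00000016147) spans chr1:106998623-107038704 with 4051 bases in 12 merged exons, and Slc17a7 (ENSRNOG00000020650) spans chr1:101161252-101173174 with 3210 bases, also in 12. No other feature of the tables overlapped any of them.

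The promoters of the synthase pair and of the glutamate transporter pair are printed because the results turn on how the members of each pair differ. They are RefSeq sequence of build GRCr8, plus strand, from 250 bases before to 50 bases after the annotated start, and 5 of 5 genes were matched by symbol. Capitals mark TATAAA (the TATA box), CCAAT (the CCAAT box), GGGCGG (the GC box), CACGTG (an E-box) or TGACGTCA (the cAMP response element) on either strand, so a reverse match of the GC box reads CCGCCC.
Gad1, chr3:75777202-75777501: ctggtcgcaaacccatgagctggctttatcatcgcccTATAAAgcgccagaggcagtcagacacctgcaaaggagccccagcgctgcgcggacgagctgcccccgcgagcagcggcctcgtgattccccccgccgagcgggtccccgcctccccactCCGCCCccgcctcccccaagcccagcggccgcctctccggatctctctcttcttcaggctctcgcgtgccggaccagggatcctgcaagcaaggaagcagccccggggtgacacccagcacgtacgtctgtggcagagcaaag
Gad2, chr17:89671468-89671767: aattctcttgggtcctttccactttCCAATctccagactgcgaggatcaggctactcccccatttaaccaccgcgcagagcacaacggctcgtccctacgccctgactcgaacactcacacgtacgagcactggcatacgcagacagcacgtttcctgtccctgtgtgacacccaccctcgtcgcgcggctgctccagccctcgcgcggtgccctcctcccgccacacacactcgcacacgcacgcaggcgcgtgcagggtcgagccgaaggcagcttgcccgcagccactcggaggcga
Slc17a6, chr1:110348197-110348496: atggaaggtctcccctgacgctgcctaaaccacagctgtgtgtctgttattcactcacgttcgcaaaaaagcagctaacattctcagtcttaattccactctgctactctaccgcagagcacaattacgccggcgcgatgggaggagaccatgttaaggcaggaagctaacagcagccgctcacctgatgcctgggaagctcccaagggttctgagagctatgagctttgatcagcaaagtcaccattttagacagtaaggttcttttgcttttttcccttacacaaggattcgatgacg
Slc17a7, chr1:104785955-104786254: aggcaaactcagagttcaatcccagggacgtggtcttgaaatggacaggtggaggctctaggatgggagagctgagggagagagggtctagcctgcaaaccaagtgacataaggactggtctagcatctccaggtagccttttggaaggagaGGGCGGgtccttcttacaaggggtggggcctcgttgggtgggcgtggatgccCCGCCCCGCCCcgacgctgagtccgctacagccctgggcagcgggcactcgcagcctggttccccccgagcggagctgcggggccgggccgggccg
A match of letters is a description and not a binding site. TATAAA was in the Gad1 window alone among the 5 genes, with its first base 213 bases before the start, and is in 14.2% of all 33469 rat promoter windows of this length. Gad2 held a CCAAT 225 bases before the start, which 37.5% of windows hold. The Slc17a7 window held GGGCGG 3 times, at 98, 46 and 41 bases before the start, and the Slc17a6 window held none of the marked motifs; 33.1% of windows hold the GC box. The E-box letters CACGTG (6.42% of windows) and TGACGTCA (1.83%) were in none of the 5 windows. The windows held 26 CpG pairs in Gad1, 29 in Gad2, 42 in Slc32a1, 11 in Slc17a6 and 17 in Slc17a7, against a median of 7 over all windows. As many CpG pairs as in Slc32a1 were in 2.40% of windows.

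Levels are given as CPM, a gene's counts scaled to a library total of common size after TMM normalisation, and are compared between genes as CPM per kilobase of exon (RPKM). In the NAc the RPKM order was the same in all 14 libraries for the GABA genes. Gad2 was highest at 327 ± 40.2 RPKM (SD, n = 14), Gad1 followed at 112 ± 9.81 and Slc32a1 at 45.6 ± 4.16. The glutamate transporters lay below all of them, at 0.760 ± 1.83 RPKM for Slc17a6 and 0.832 ± 0.863 for Slc17a7, and did not keep an order, with Slc17a6 above Slc17a7 in 5 of 14 libraries. Without female fentanyl rat 2 the Slc17a6 level was 0.275 ± 0.234 RPKM (SD, n = 13). NAc tissue as punched thus held abundant RNA for GABA synthesis and almost none for either glutamate transporter.

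In the VTA, Gad2 was again the most abundant of the GABA genes, at 107 ± 33.1 RPKM (SD, n = 10), above Gad1 in 10 of 10 libraries. Slc17a6 came next at 42.9 ± 23.6 RPKM, then Gad1 at 36.3 ± 10.6 and Slc32a1 at 27.6 ± 17.1, or 22.3 ± 3.88 (SD, n = 9) without female fentanyl rat 2. These 3 neighbours were not separated beyond their spread: Slc17a6 was above Gad1 in 7 of 10 libraries, and Gad1 was above Slc32a1 in 8 of 10. Slc17a7 was the lowest of the 5 in 10 of 10 libraries, at 1.22 ± 0.592 RPKM. The median ratio of Gad2 to Slc17a6 RPKM was 2.36, and it ran from 0.796 to 10.4 over 9 libraries. The VTA library of female fentanyl rat 2 was at 28.9.

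**Figure D1:**
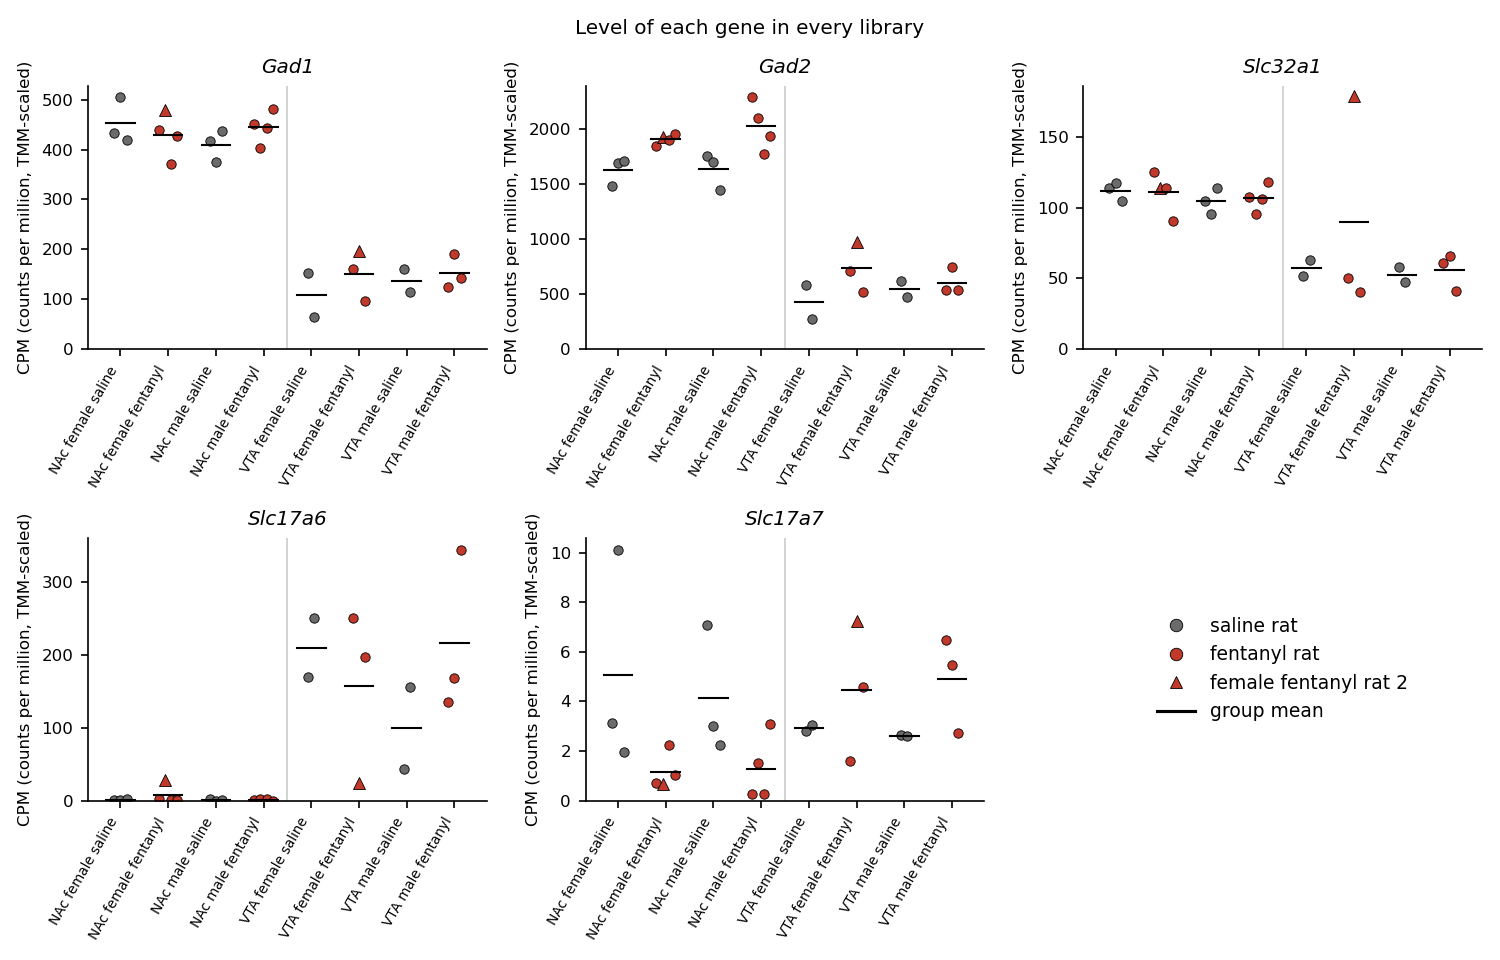
Level of each gene in CPM (vertical axis, a separate scale for each gene) in each of the 24 libraries, by region, sex and treatment; points are libraries, bars are group means, and the triangle marks female fentanyl rat 2. Gad2 lies between 1767 and 2286 CPM in the 8 NAc fentanyl libraries and between 1446 and 1755 CPM in the 6 NAc saline libraries.

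Region was compared in the 20 libraries of the 10 rats with both punches, using edgeR's quasi-likelihood test with the rat as a block and Benjamini-Hochberg adjustment over 14795 genes, averaged over the groups of sex and treatment. Of the 5 genes 4 were called at an adjusted p under 0.05, where 62.3% of all genes tested were called. With most genes called, the count is not a result about these 5 genes, and their sizes are given as the description.

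Gad1, the GAD67 gene, was lower in the VTA. In the VTA it measured 161, 196 and 95.9 CPM in fentanyl females, 153 and 65.3 CPM in saline females, 124, 191 and 142 CPM in fentanyl males, and 160 and 115 CPM in saline males. In the NAc its 14 libraries ran from 372 CPM to 505 CPM with a median of 435 CPM. The ranges did not overlap, and the log2 fold change was -1.70 ± 0.15 (SE; edgeR adjusted p = 5.13e-06), with VTA below NAc in 10 of 10 rats. Gad2, the GAD65 gene, fell by the same measure: -1.70 ± 0.13 (SE; edgeR adjusted p = 5.57e-07), again in 10 of 10 rats. The lowest VTA library of each synthase was female saline 2, and without that rat the log2 fold changes were -1.50 for Gad1 and -1.52 for Gad2. The Gad2 values in the VTA were 706, 970 and 522 CPM in fentanyl females, 580 and 273 CPM in saline females, 536, 743 and 533 CPM in fentanyl males, and 616 and 476 CPM in saline males, all below the lowest NAc library at 1446 CPM. Of 14807 genes, 11.4% were likewise lower in the VTA with no overlap of the 10 VTA and 10 NAc libraries of these rats.

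Slc32a1, the vesicular GABA transporter gene, was lower in the VTA by less. Its VTA values were 50.0045, 179 and 40.4 CPM in fentanyl females, 52.0 and 62.7 CPM in saline females, 61.2, 65.7 and 41.1 CPM in fentanyl males, and 58.0 and 47.6 CPM in saline males. The NAc libraries ran from 90.4 CPM to 126 CPM with a median of 111 CPM. The groups overlapped through female fentanyl rat 2 alone, whose VTA punch held 179 CPM against 114 CPM in its NAc punch, while the other 9 rats were lower in the VTA. The log2 fold change was -0.87 ± 0.22 (SE; edgeR adjusted p = 0.0106), and -1.07 without that rat (adjusted p = 1.28e-09).

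Slc17a6, the VGLUT2 gene, had the largest fold change of the 5 between the regions, but its ranges overlapped. The VTA libraries held 250, 24.4 and 198 CPM in fentanyl females, 169 and 250 CPM in saline females, 136, 168 and 343 CPM in fentanyl males, and 43.2 and 156 CPM in saline males. In the NAc the female fentanyl libraries held 2.16, 28.6, 0.280 and 0.514 CPM, and the other 10 ran from 0 to 2.54 CPM, or 0 to 13 counts. The 2 libraries with no count allow up to 0.774 CPM (male fentanyl 7) and 0.905 CPM (male saline 3), by a limit of 3 counts that covers counting error only. The overlap lay between the 24.4 CPM and the 28.6 CPM of female fentanyl rat 2, and VTA was above NAc in 9 of 10 rats. The exception was female fentanyl rat 2, with 125 counts in each region. The log2 fold change was 6.25 ± 0.98 (SE; edgeR adjusted p = 0.00144), and 7.23 without that rat (adjusted p = 2.00e-07) or 7.75 without male saline rat 1 (adjusted p = 0.00716); with so few NAc counts its size depends on the prior count of the fit.

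Slc17a7, the VGLUT1 gene, was scarce in both regions and missed the threshold between them in the fit to all 10 rats. Its VTA values were 1.60, 7.24 and 4.58 CPM in fentanyl females, 2.81 and 3.06 CPM in saline females, 6.49, 5.46 and 2.74 CPM in fentanyl males, and 2.65 and 2.59 CPM in saline males. The log2 fold change was 0.71 ± 0.31 (SE; edgeR adjusted p = 0.0523), and 0.49 without female fentanyl rat 2 (adjusted p = 0.169). It passed the threshold without female fentanyl rat 7 (adjusted p = 0.0288), male fentanyl rat 2 (0.0252), female saline rat 2 (0.0248) or male saline rat 1 (0.0415). Over all 10 rats it also passed with mitochondrial features left out (0.72, adjusted p = 0.0484) and with no filter on low counts (0.74, adjusted p = 0.0194), and it did not pass by limma voom (adjusted p = 0.105) or DESeq2 (0.101). Within rats the change went both ways, with VTA above NAc in 6 rats, which were the 6 fentanyl rats, and below in 4, which were the 4 saline rats. The log2 differences were -1.60 and -1.29 in female saline rat 2 and male saline rat 1. They were only -0.13 and -0.19 in female saline rat 1 and male saline rat 3, on 10 to 18 counts. By CPM of plain library totals male saline rat 3 was higher in the VTA, at 2.91 against 2.68 CPM. The split by treatment thus depended on the scaling and on few counts.

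**Figure D2:**
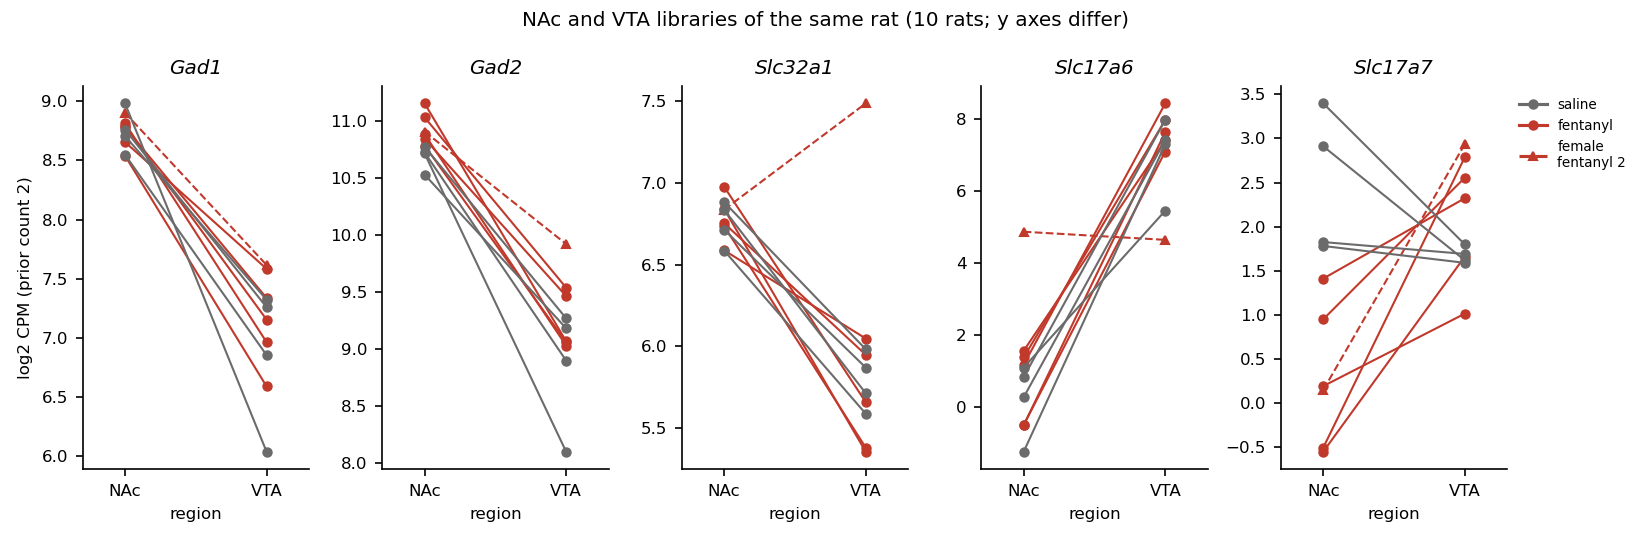
Level of each gene (log2 CPM with a prior count of 2, vertical axis, a separate scale for each gene) in the NAc and the VTA of the same 10 rats; each line joins the punches of 1 rat, and the dashed line with triangles is female fentanyl rat 2. Gad1 and Gad2 fall in 10 of 10 rats, Slc32a1 falls and Slc17a6 rises in 9 of 10, and Slc17a7 goes both ways.

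The region difference was also fitted by treatment. In saline rats 3 of the 5 genes were called, where 45.1% of all genes were called. Gad1 was at -1.87 ± 0.23 (SE; edgeR adjusted p = 0.000133) and Gad2 at -1.82 ± 0.21 (adjusted p = 2.97e-05). Slc17a6 was at 7.13 ± 1.59 (adjusted p = 0.0113), a call that was lost without female saline rat 1 (adjusted p = 0.0557), female saline rat 2 (0.0538) or male saline rat 3 (0.0713), and a value that became 10.10 without male saline rat 1 (0.0394). Slc32a1 missed the threshold by edgeR, at -0.96 ± 0.34 (adjusted p = 0.0541), and passed by limma voom (adjusted p = 0.00507), by DESeq2 (0.000701), with no filter on low counts (1.90e-11) and without the rat block (0.0436). Adjusted p values of the edgeR fit with no filter were unlike those of the main fit. For Gad2 after fentanyl they were 0.0125 against 0.603 in the VTA mean and 0.18 against 0.138 in NAc females. The p values with no filter are therefore not read as added support. Slc17a7 missed the threshold by edgeR, at -0.93 ± 0.42 (adjusted p = 0.0788), and by DESeq2 (0.234), and passed by limma voom (0.0297). It was at -1.30 without female saline rat 1 (adjusted p = 0.0432), -0.48 without female saline rat 2 (0.509) and -0.57 without male saline rat 1 (0.461).

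In fentanyl rats 4 of the 5 genes were called, where 54.0% of all genes were called. Gad1 was at -1.52 ± 0.19 (SE; edgeR adjusted p = 8.27e-05) and Gad2 at -1.57 ± 0.17 (adjusted p = 1.10e-05). Slc17a6 was at 5.37 ± 1.15 (adjusted p = 0.00758), at 7.33 without female fentanyl rat 2 (adjusted p = 1.87e-06), and at 4.77 and 4.71 without female fentanyl rats 1 and 7 (0.0232 and 0.0190). Slc17a7 was higher in the VTA, at 2.36 ± 0.44 (adjusted p = 0.000214), and at 1.92 without female fentanyl rat 2 (adjusted p = 0.00162). Slc32a1 missed the threshold by edgeR, at -0.78 ± 0.28 (adjusted p = 0.0520). With all fentanyl rats it passed by limma voom (adjusted p = 0.00728), by DESeq2 (0.000411) and, with the limit stated above, by edgeR with no filter on low counts (4.91e-11). Without female fentanyl rat 2 it passed by edgeR, at -1.16 (adjusted p = 6.03e-08).

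Whether the region difference itself differed with treatment was tested as the fentanyl effect in the VTA minus that in the NAc. None of the 5 genes was called by edgeR, limma voom or DESeq2, and 1 had an unadjusted edgeR p under 0.05; edgeR called 0% of all genes and found 840 of 14795 with an unadjusted p under 0.05. That member was Slc17a7, at 3.29 ± 0.61 on the log2 scale (SE; unadjusted p = 4.98e-05, adjusted p = 0.368), and 7 of 14795 genes had a larger difference. Slc17a6 was at -1.76 ± 2.66, with an SE larger than the estimate, and its sign turned without female fentanyl rat 2, at 0.20. With no filter on low counts edgeR called both Slc17a7 (adjusted p = 1.18e-06) and Slc17a6 (0.00133). The share of all genes that this fit called is not given here, and its p values carry the limit stated above. The differences for the GABA genes were 0.35 for Gad1, 0.25 for Gad2 and 0.18 for Slc32a1 on the log2 scale.

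Fentanyl was compared with saline within the NAc over 14 libraries and 13248 genes. Slc17a6 did not pass the filter on low counts there, so 4 of the 5 genes were tested. Averaged over the sexes 2 of these 4 were called by edgeR, where 7.51% of all genes were called (4.52% higher and 2.99% lower). Gad2 was higher after fentanyl and Slc17a7 was lower.

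Gad2 in females measured 1843, 1925, 1893 and 1951 CPM after fentanyl and 1481, 1686 and 1708 CPM after saline. In males it measured 2286, 2100, 1767 and 1932 CPM after fentanyl and 1755, 1695 and 1446 CPM after saline. The lowest fentanyl library, male fentanyl 3, was at 1767 CPM and the highest saline library, male saline 1, at 1755 CPM, so the 8 and the 6 libraries did not overlap; 0.460% of all genes were higher with no such overlap. That separation depended on the scaling: with CPM of the plain library totals the lowest fentanyl library was at 1444 CPM and the highest saline library at 1786 CPM, and with mitochondrial features left out they were at 2283 and 2378 CPM. The log2 fold change was 0.28 ± 0.08 (SE; edgeR adjusted p = 0.0278). With mitochondrial features left out of the fit it was 0.27 (adjusted p = 0.0264). The call was lost without male fentanyl 1 (adjusted p = 0.0648), male fentanyl 2 (0.0601), male saline 4 (0.106), female saline 1 (0.0932) or female saline 4 (0.0515).

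Slc17a7 in females held 2, 3, 8 and 4 counts after fentanyl (0.722, 0.687, 2.24 and 1.03 CPM) and 16, 45 and 10 counts after saline (3.12, 10.1 and 1.96 CPM). In males it held 1, 6, 1 and 12 counts after fentanyl (0.284, 1.51, 0.261 and 3.10 CPM) and 25, 10 and 9 counts after saline (7.10, 3.02 and 2.26 CPM). The groups overlapped, and every value was small. The log2 fold change was -1.84 ± 0.50 (SE; edgeR adjusted p = 0.0340), with 1 of 13248 genes at a lower value. Slc17a7 passed the filter on low counts mainly through saline libraries, where it was higher. Its entry into the test thus favoured a lower value after fentanyl, and the call and rank are given as a description. DESeq2 gave no adjusted p for Slc17a7 (unadjusted p = 0.000482). The edgeR call was lost without male fentanyl 1 (adjusted p = 0.0573) or 2 (0.0668), female fentanyl 1 (0.0605) or 2 (0.0587), male saline 1 (0.106) or 4 (0.0533), or female saline 2, which held 45 counts and without which the log2 fold change was -1.36 (adjusted p = 0.0963).

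Gad1 and Slc32a1 did not pass the test. Gad1 in females measured 439, 478, 372 and 428 CPM after fentanyl and 433, 505 and 418 CPM after saline, and in males 450, 403, 442 and 482 CPM against 417, 374 and 437 CPM. The groups overlapped in each sex, and the log2 fold change averaged over sexes was 0.029 ± 0.07 (SE; edgeR adjusted p = 0.852). Slc32a1 in females measured 126, 114, 114 and 90.4 CPM after fentanyl and 114, 118 and 105 CPM after saline, and in males 107, 95.7, 106 and 118 CPM against 105, 95.6 and 114 CPM. Its log2 fold change was 0.015 ± 0.08 (adjusted p = 0.932), again with overlapping groups.

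Within single sexes no member was called by edgeR in the NAc. In females edgeR called 13.5% of all genes, or 1788 of 13248, at an adjusted p under 0.05. At an unadjusted p under 0.05 there were 2 of the 4 genes. The number of all genes at that unadjusted threshold, at least 1788, is not given here. Limma voom called 0 and DESeq2 called 1, Slc17a7 (adjusted p = 0.0466), and their shares of all genes are not given here. Gad2 was at 0.24 ± 0.11 (SE; edgeR adjusted p = 0.138) and Slc17a7 at -2.05 ± 0.70 (adjusted p = 0.0593). In males, where 0% of all genes were called and 850 had an unadjusted p under 0.05, 2 of the 4 genes had an unadjusted p under 0.05 and neither limma voom nor DESeq2 called any. Gad2 was at 0.31 ± 0.11 (adjusted p = 0.571) and Slc17a7 at -1.62 ± 0.72 (adjusted p = 0.756). The difference between the female and the male effect was called for 0 of 4 genes by edgeR, limma voom and DESeq2, with none at an unadjusted p under 0.05, where edgeR called 0.770% of all genes. Saline females and saline males were called different for 0 of 4 genes by edgeR, limma voom and DESeq2, with 0 at an unadjusted p under 0.05, where edgeR called 0.377% of all genes.

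In the VTA none of the 5 genes was called for fentanyl against saline in females, in males, averaged over the sexes, or for the difference between sexes. There edgeR called 0% of 14400 genes in each of these comparisons, with 1098, 648, 1271 and 476 genes at an unadjusted p under 0.05, and no member among them. Limma voom and DESeq2 called no member either, and each gave 1 member an unadjusted p under 0.05 in females and in the mean. The numbers of all genes at that threshold by these tools are not given here, so the count is not a result about the members. With 2 saline rats per sex the spread was wide: Gad1 was at 0.31 ± 0.30 (SE; edgeR adjusted p = 0.769), Gad2 at 0.46 ± 0.25 (adjusted p = 0.603) and Slc17a6 at 0.35 ± 0.70 (adjusted p = 0.897), as log2 fold changes averaged over the sexes. Each of these moved when 1 library was left out, and none was called. Gad1 was at 0.063 without female saline 2 and 0.68 without female saline 1, and Gad2 at 0.24 and 0.79 without the same libraries. Slc17a6 was at 0.021 without male saline 1 and 0.95 without male saline 3. Slc17a7 was at 0.77 ± 0.39 (adjusted p = 0.575). Slc32a1 was at 0.37 ± 0.45 (adjusted p = 0.821), and at -0.13 without female fentanyl rat 2. In VTA males the Slc17a7 groups did not overlap, at 2.74 to 6.49 CPM after fentanyl and 2.59 to 2.65 CPM after saline, and 11.6% of all genes were higher there without overlap.

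**Figure D3:**
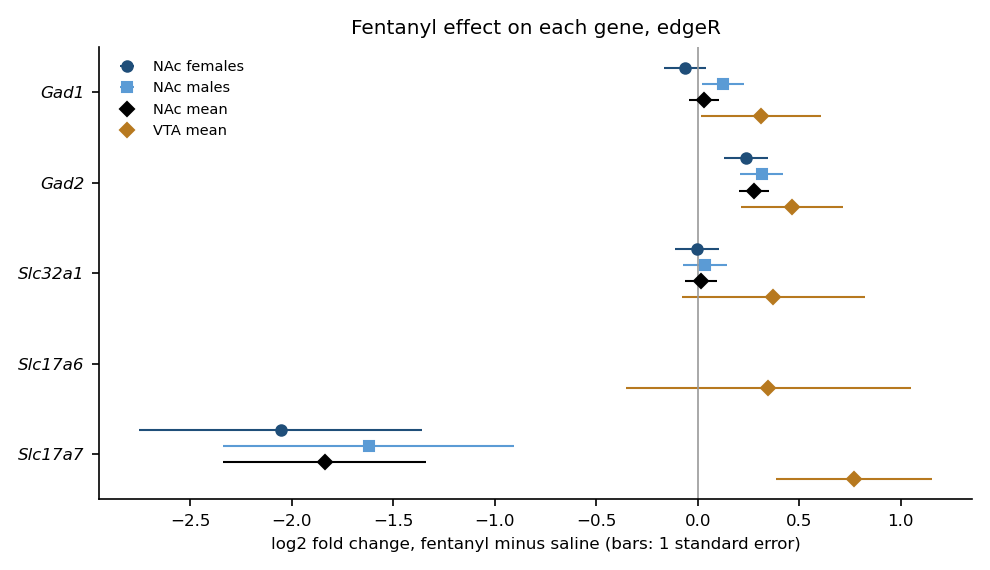
Log2 fold change of fentanyl over saline from edgeR (horizontal axis, bars are 1 SE) for each gene in NAc females, NAc males, the NAc mean of both sexes and the VTA mean of both sexes; Slc17a6 was not tested in the NAc. In the NAc mean Gad2 lies at 0.28 and Slc17a7 at -1.84, and Gad1 and Slc32a1 lie near 0.

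Ratios inside a library do not depend on its scaling, so the balance between members was compared as log2 ratios of counts plus 0.5, with exact two-sided permutation tests and Benjamini-Hochberg adjustment over 28 comparisons. Gad1 to Gad2, the balance of the GABA synthases, was -2.17 ± 0.17 (SD, n = 8) after fentanyl and -1.92 ± 0.20 (SD, n = 6) after saline in the NAc. The difference of -0.25 had an exact permutation p of 0.0318 over 1225 regroupings within sex and did not pass after adjustment (adjusted p = 0.223). Gad1 made up 16.1% to 20.01% of the Gad1 and Gad2 counts in the NAc fentanyl libraries and 18.1% to 23.2% in the NAc saline libraries, which overlapped. Between the regions this ratio differed by 0.0077 (exact permutation p = 0.910), with 5 of 10 rats higher in the VTA.

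Slc32a1 to the sum of Gad1 and Gad2, RNA of the vesicular transporter relative to RNA of the synthases, was higher in the VTA in 10 of 10 rats. The log2 difference was 0.81, with an exact permutation p of 0.00195, the smallest that 10 rats can give, and an adjusted p of 0.0273. Per 100 RPKM of the summed synthases the NAc libraries held 8.22 to 12.8 RPKM of Slc32a1. The VTA libraries held 12.4 to 19.98 RPKM, except 33.4 in female fentanyl rat 2 and 39.8 in female saline rat 2. In the NAc the log2 ratio was -4.46 ± 0.20 (SD, n = 8) after fentanyl and -4.25 ± 0.16 (SD, n = 6) after saline, a difference of -0.21 (exact permutation p = 0.0604, adjusted p = 0.338).

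The ratio of Slc17a6 to Slc17a7 was higher in the VTA in 9 of 10 rats, by 5.66 on the log2 scale (exact permutation p = 0.00391, adjusted p = 0.0365). The exception was female fentanyl rat 2, without which the difference was 6.67. In the NAc this ratio was 2.30 higher after fentanyl (exact permutation p = 0.115), on the few counts given above. The GABA synthases together outweighed the glutamate transporters less in the VTA than in the NAc, by -6.78 in the log2 ratio of their summed counts. That value is given as a description and was -7.40 without female fentanyl rat 2.

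**Figure D4:**
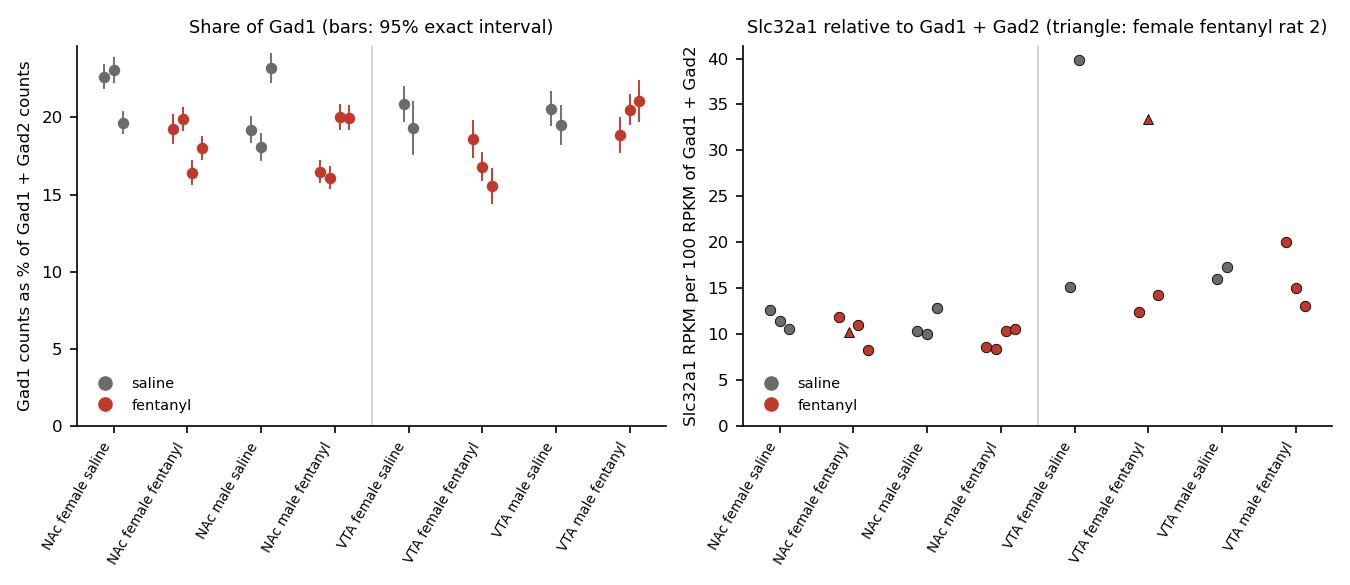
Left, Gad1 as a percent of Gad1 and Gad2 counts in each library, with 95% exact binomial intervals that cover counting error only; right, Slc32a1 RPKM per 100 RPKM of Gad1 and Gad2. Libraries are ordered by region, sex and treatment, and the VTA libraries lie mostly higher than the NAc libraries in the right panel and at like values in the left.

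Across the 10 VTA libraries Gad1 and Gad2 moved together, with Pearson's r = 0.934 and Spearman's rho = 0.976 (permutation p = 4e-05 and 2e-05, adjusted p = 0.0008 for r over 20 correlations). Without the 2 libraries farthest from the Gad1 median r was 0.916. With the treatment means removed r was 0.937. The points share region and punch type. Across the 14 NAc libraries r was 0.022 (rho = 0.0549), where both genes varied little. Slc32a1 and Slc17a6 in the VTA gave r = -0.783 (permutation p = 0.0159, adjusted p = 0.159) and rho = -0.503 (permutation p = 0.146). Without the 2 libraries farthest from the Slc32a1 median, female fentanyl 2 and female fentanyl 7, r became -0.40, so its size depended on those.

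**Figure D5:**
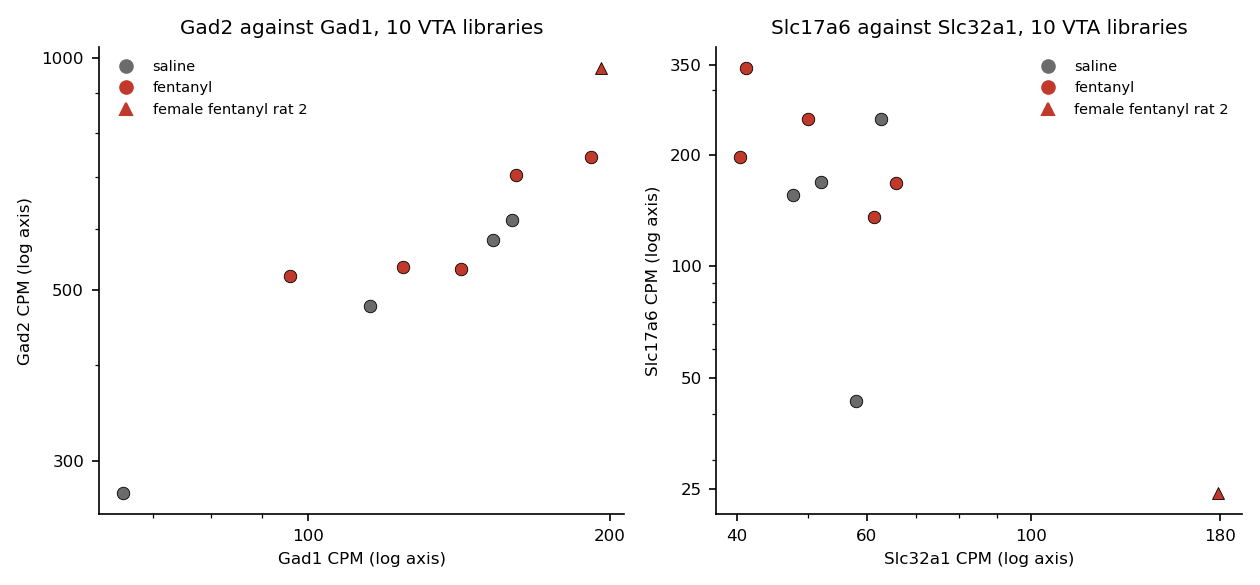
Gad2 against Gad1 and Slc17a6 against Slc32a1 (CPM, log axes) in the 10 VTA libraries; each point is 1 library and the triangle is female fentanyl rat 2. Gad1 and Gad2 lie along a line from 65.3 and 273 CPM to 196 and 970 CPM, and the triangle is highest in Slc32a1 and lowest in Slc17a6.

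The genes whose log2 CPM pattern over all 24 libraries was most like that of each member were ranked by Pearson's r among 10930 genes, with no test, since the libraries share 2 regions that set most of the pattern. The highest r was 0.977 for Slc17a6, with ENSRNOG00000004077, 0.962 for Gad2, with ENSRNOG00000018648, 0.949 for Gad1, 0.877 for Slc32a1 and 0.778 for Slc17a7. The reference used here pairs neither identifier with a symbol.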

How the data were processed

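Each library came as a deposited table of unnormalized whole-number counts with exon coordinates for every Ensembl gene. The submitters' processing notes name STAR 2.5.2b, Subread 1.5.2 with featureCounts, and Trimmomatic 0.36, besides DESeq2. The sources used here do not state the build, annotation, strand setting or handling of multiply aligned reads. The counts were fitted with edgeR 4.0.16 (TMM, filterByExpr, robust quasi-likelihood), with limma 3.58.1 voom and DESeq2 1.42.0 as alternatives, in R 4.3.3. Each region was fitted alone, with all its groups sharing 1 estimate of the spread, and the region comparison had the rat as a block. The pairing comes from the animal; same-rat libraries deviated together little (mean r = 0.0352 over 10 pairs, from -0.0292 to 0.129). Permutation tests used Python 3.11.15 and scipy 1.17.1. Adjusted p under 0.05 was the threshold. The 5 genes are named in every comparison, and likeness by highest r at a mean of at least 5 CPM. The members and lists were chosen with earlier results of these data known. Gene lists of other pathway and cell type genes were not analysed here, because the reference pairs none of the Ensembl identifiers with symbols; the punches were therefore checked only by region-biased genes. Libraries are separate rats within a group. Alternatives tried were the filter, size factors, mitochondrial features, other tools, a replicate block and leaving out each library.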

Additional observations from a re-analysis of the deposited data

Results flagged for a closer look

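In the NAc of fentanyl females, Slc17a6 in rat 2 was far above the other 3 libraries, at 28.6 CPM against 0.280 to 2.16 CPM. The gap to the nearest library exceeded Dixon's 95% critical value for 4 samples. The test was made on 9 quantities in each of the 2 groups of 4 libraries, 18 times in all, and marked this 1; chance marks about 1 in 20. The same NAc library lay 0.303 of the way to the VTA on genes higher in the VTA, and its part in this value was not tested.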

How the results depend on the processing

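Over 37 member results 539 alternative values were computed; 480 kept direction and side of the threshold, 16 lost the call, 24 gained it and 19 changed sign, none of them called as reported. Members called in NAc females were 1 with no filter, DESeq2 or a replicate block, and 0 to 1 leaving out each library; in the NAc mean 1 with DESeq2 or a replicate block, and 0 to 2 leaving out each library. With no filter on low counts 2 were called in VTA females, 1 in VTA males, 1 in the VTA mean, 1 for the VTA sex difference and 2 for the difference of effects between regions. Limma voom called 5 in saline rats between regions. The shares of all genes called by the alternative fits are not given here, so these counts are not results about the members. Slc32a1 in NAc females became 0.0019 with RLE size factors and 0.068 with a replicate block. Leaving out each library moved log2 values as follows: NAc females, Gad1 -0.13 to 0.022 and Slc32a1 -0.0655 to 0.085; NAc males, Slc32a1 -0.028 to 0.10; NAc mean, Gad1 -0.0038 to 0.073 and Slc32a1 -0.017 to 0.060; VTA mean, Slc32a1 -0.13 to 0.55. For the difference of effects between regions the ranges were -0.032 to 0.71 for Gad1, -0.10 to 0.56 for Gad2, -0.18 to 0.39 for Slc32a1 and -4.70 to 0.20 for Slc17a6. Log2 ratios ranged as follows: Gad1 to Gad2, -0.29 to -0.18 in the NAc and -0.039 to 0.045 between regions; Slc17a6 to Slc17a7, 1.57 to 3.003 in the NAc and -1.02 to 0.34 in the VTA; synthases to transporters, 0.65 to 1.38 in the NAc and -0.34 to 0.79 in the VTA; Slc32a1 to synthases, -0.25 to -0.16 in the NAc and -0.61 to 0.079 in the VTA. The cause of these changes was not tested. Same-numbered fentanyl and saline rats share only a number (mean r = 0.0506 over 8 pairs, -0.0214 to 0.194); with that replicate block, Gad2 in the NAc mean was 0.25 (adjusted p = 0.223) and Slc17a7 -3.43 (adjusted p = 0.00184). A pseudocount of 0 was not run where a count was 0. Where leaving out a VTA saline rat left 1 library, it was assumed to vary like the others. Depth limits Slc17a6 and Slc17a7 in the NAc, at 0 to 125 and 1 to 45 counts.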
